A study of Mus musculus with 8 samples.

Results

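Nuclear pore components are the proteins that build the gated channel between nucleus and cytoplasm, together with the export factors that dock on it. The set held 31 genes, chosen by symbol as nucleoporins and pore-bound export factors. They were among 18560 genes measured by RNA sequencing in mouse tissue labelled dorsal root ganglia. All 31 had a line in the table and all 31 passed the filter on low counts. The compared groups were 4 libraries labelled WT, called Ctrl in the expression table, and 4 labelled cKO, for conditional deletion of Alyref. Both genotype labels also carried P60, and source and tissue were given as dorsal root ganglia for all 8 libraries. No source used here gives the promoter of the Cre, the deleted cells, the sex of the animals, any treatment, or whether a library came from 1 animal or a pool. The p-values below therefore measure the spread between these libraries only.

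The pore is a ring of repeated subcomplexes set into the nuclear envelope. Membrane nucleoporins anchor it, an inner ring and an outer ring of Y-shaped complexes form its frame, and disordered phenylalanine-glycine (FG) repeats fill its channel and bind transport receptors. A basket on the nuclear side receives mRNA particles, and a platform on the cytoplasmic side strips export factors from mRNA as it leaves. Alyref works upstream of the pore: it is an adaptor that recruits the mRNA export receptor to transcripts. Neurons keep many scaffold nucleoporins for very long times, so mRNA levels of these genes need not mirror the amount of protein.

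The 8 libraries held 15522915 to 16482614 estimated counts each, and single pore genes held 59 to 2274. Alyref is the gene targeted in cKO. It stood at 20.9, 25.7, 19.4 and 22.2 CPM (estimated counts divided by the library's scaled total) in WT replicates 1 to 4. In cKO replicates 1 to 4 it stood at 21.65, 19.4, 20.1 and 20.7 CPM. Its log2 fold change of −0.11 ± 0.10 (SE) had an adjusted p = 0.887 (edgeR) and was −0.02 without WT replicate 2, its highest library. The groups overlapped in the target gene and are named here by their labels. Replicate 2 of WT stood apart from the other 7 libraries: its Spearman correlations with them were 0.944 to 0.967, against 0.990 to 0.996 among the 7. Its 14 sensory neuron markers summed to 3481 CPM, against 271.1 to 972.2 CPM elsewhere, and its 12 spinal cord markers to 2266 CPM, against 4912 to 6413 CPM. All 14 and all 12 were detected in every library. Genes of the spinal cord were thus present in all 8, although the label names the ganglion alone. In the other 7 libraries the spinal cord sum was the larger, and in WT replicate 2 the sensory neuron sum. The share of RNA from each tissue was not tested. The 8 markers of Schwann cells and satellite glia, all detected in every library, summed to 10017 CPM in WT replicate 2 and 11659 to 19882 CPM elsewhere. Where a log2 fold change named below moved by over 1.5 times or turned when that library was left out, the value without it is given too. Values per library stand in the order of replicates 1 to 4.

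No nuclear pore gene passed the test for a difference between WT and cKO. Of 31 members 0 had an adjusted p below 0.05 (edgeR quasi-likelihood test, Benjamini-Hochberg over 15098 tested genes, lowest value 0.887), against 0.0% of all tested genes. At an unadjusted p below 0.05 there was 1 member, Nup210, against 1.65% of all tested genes. DESeq2 and limma-voom also called 0 members, with 0 and 1 at an unadjusted p below 0.05. Means were higher in cKO for 12 members and lower for 19, where 48.5% of all tested genes were higher; on the log2(TPM + 0.1) scale 16 members were higher. Log2 fold changes ran from −0.22 to 0.12, with a median of −0.04 beside −0.005 over all tested genes. Without WT replicate 2 the members' median was −0.02 and 9 were higher. Standard errors lay between 0.05 and 0.22, with a median of 0.08 against 0.13 over all tested genes. The 95% interval of the log2 fold change lay within 0.5 either way for 28 of 31 members, against 61.9% of all tested genes. The 3 wider intervals belonged to Nup37, Nup43 and Nup93, and the widest reached from −0.64 to 0.35 for Nup37. RNA came from whole tissue, so fewer cells of a type and less RNA per cell cannot be told apart.

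**Figure D1:**
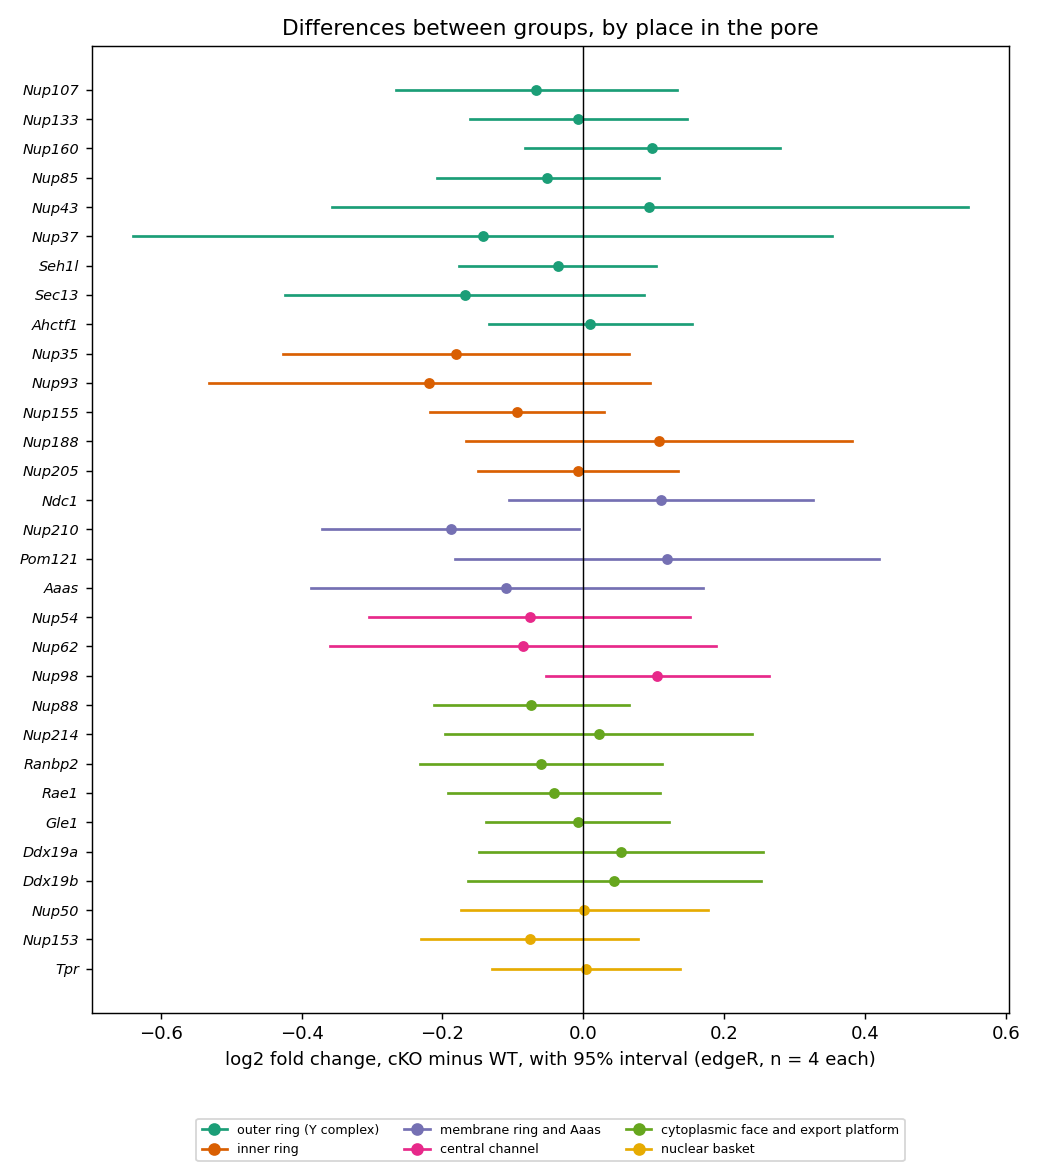
Log2 fold change (cKO minus WT) of each of the 31 genes with its 95% interval from edgeR, n = 4 libraries per group, colored by place in the pore. All intervals but that of Nup210, which ends at −0.01, include 0.

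Levels of the members, compared per length as TPM (counts divided by transcript length and then by their sum in the library), spanned 18.6-fold. Sec13 led with a mean of 117.7 ± 10.1 TPM (SD over 8 libraries), followed by Nup88 at 46.4 ± 2.10, Seh1l at 40.5 ± 2.97, Rae1 at 37.1 ± 2.35 and Gle1 at 34.8 ± 2.35 TPM. Sec13 is shared with the coat of vesicles that leave the endoplasmic reticulum, and the table does not divide its mRNA between these uses. The lowest levels were those of Nup188 at 6.33 ± 0.908 TPM and Nup210 at 7.03 ± 0.650 TPM. Below Sec13, 25 members lay from 10 to 50 TPM and 5 below 10 TPM. The median of the members was 15.4 TPM and that of all tested genes 18.5 TPM. In the order of mean TPM, the ranges of neighbours overlapped for 28 of 30 pairs. The exceptions were Sec13 above Nup88 and Nup88 above Seh1l, so most ranks are not fixed by these libraries.

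**Figure D2:**
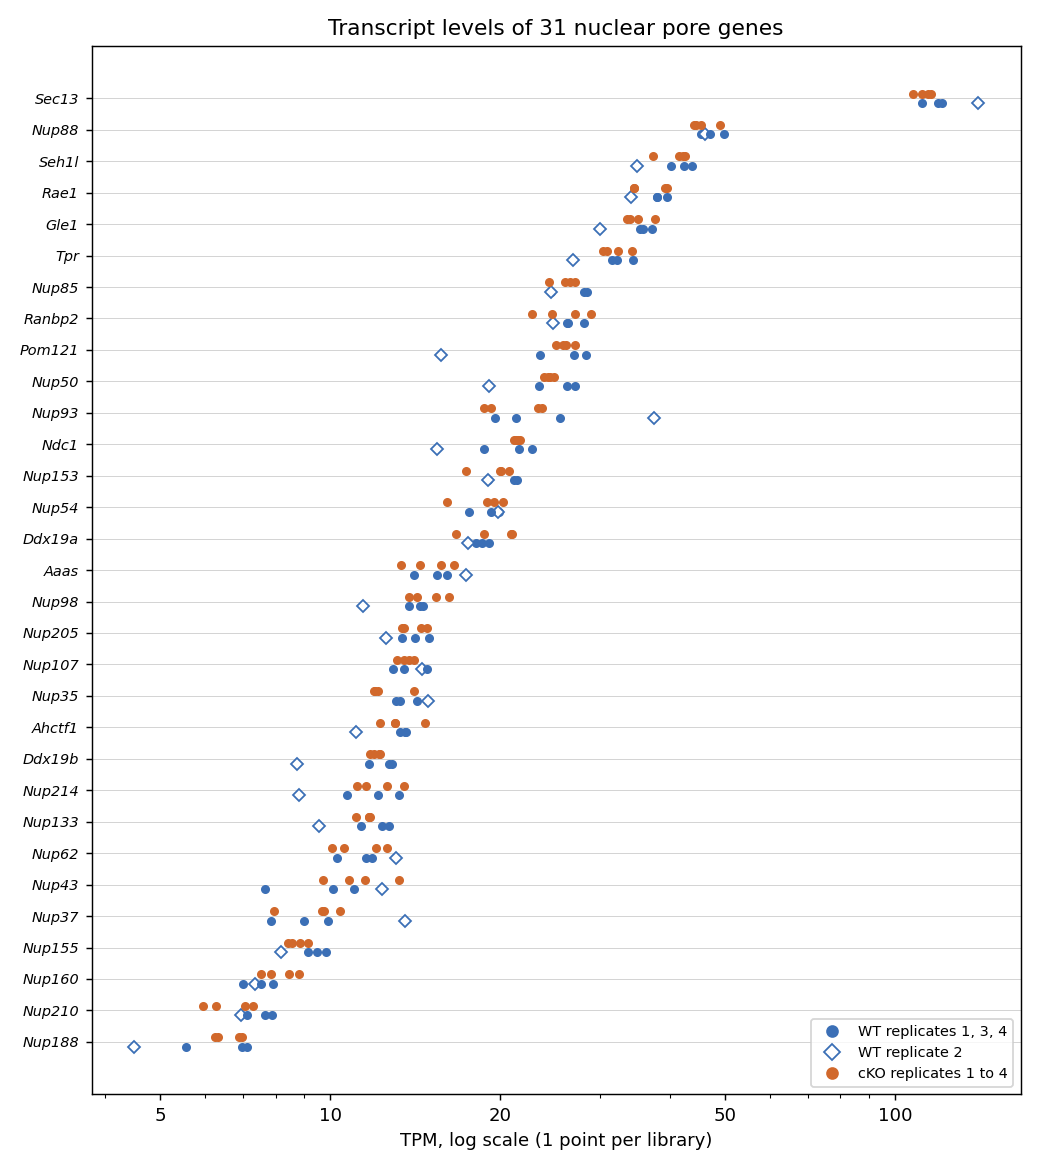
TPM of the 31 genes in each of 8 libraries on a log axis, ordered by mean; points are single libraries and the open diamond is WT replicate 2. Groups lie over each other for nearly every gene, and the diamond stands out for Nup93 at 37.5 TPM and Pom121 at 15.7 TPM.

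The outer ring is built from Y-shaped complexes of Nup107, Nup133, Nup160, Nup85, Nup43, Nup37, Seh1l and Sec13, and Ahctf1 (ELYS) brings it to chromatin when pores form. Of these 9 genes 3 had higher and 6 lower means in cKO, and the median of their log2 fold changes was −0.04, with adjusted p from 0.887 to 0.982 (edgeR). Sec13 held 56.8, 79.6, 58.6 and 59.7 CPM across WT and 56.4, 58.2, 52.5 and 59.5 CPM across cKO. WT replicate 2 was its only library above 60 CPM, and without it the log2 fold change went from −0.17 ± 0.11 (SE) to −0.04. Nup160 held 20.4, 23.9, 22.9 and 22.0 CPM across WT and 22.0, 25.2, 25.3 and 23.1 CPM across cKO. Its groups overlapped, and its log2 fold change was 0.10 ± 0.08 (SE). Without WT replicate 2 that of Nup37 turned from −0.14 to 0.10 and that of Nup43 went from 0.09 to 0.26. The subunits did not stand at equal mRNA levels. Within the ring mean TPM ranged from 7.81 for Nup160 to 117.7 for Sec13, although the complex holds its core subunits in equal number. Nup43 and Nup37 were the members with the fewest reads, and their 95% intervals were the widest. Over all 8 libraries Nup43 ranged from 3.73 to 6.91 CPM and Nup37 from 3.89 to 7.43 CPM.

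The inner ring holds the channel open, with Nup93 as its organizing linker, Nup35 and Nup155 at the membrane and the large solenoids Nup188 and Nup205. Of 5 genes 4 had lower means in cKO (median log2 fold change −0.09), with adjusted p from 0.887 to 0.977 (edgeR). Nup155 (chromosome 15, 8109263 to 8159859, GRCm38.p6) held 28.9, 28.9, 29.7 and 30.5 CPM across WT and 27.9, 27.4, 28.2 and 27.1 CPM across cKO. It was the 1 member whose groups did not overlap, against 1.52% of all tested genes. The difference was small, a log2 fold change of −0.09 ± 0.05 (SE; adjusted p = 0.887, edgeR). By an exact two-sided permutation test on its log2 CPM values p was 0.029, the smallest that 70 assignments allow. Groups of 4 without overlap always give this p, so it restates the lack of overlap and adds no support. The groups of Nup155 did overlap on the TPM scale, where WT libraries held 9.12, 8.17, 9.48 and 9.83 TPM and cKO libraries 8.85, 8.56, 9.14 and 8.43 TPM. Nup35 held 16.4, 20.8, 17.6 and 16.3 CPM across WT and 14.96, 17.8, 14.5 and 15.4 CPM across cKO, which gave a log2 fold change of −0.18 ± 0.11 (SE). Nup188 and Nup205 gave log2 fold changes of 0.11 ± 0.12 and −0.01 ± 0.06 (SE). Without WT replicate 2 the values were −0.10 for Nup35 and 0.02 for Nup188. Nup93 is described with its transcript forms below.

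The membrane ring joins pore and envelope through Ndc1, Pom121 and Nup210, and Ndc1 holds Aaas (ALADIN), whose human gene is mutated in triple A syndrome. Nup210 (chromosome 6, 91013067 to 91118322, GRCm38.p6) held 27.7, 27.1, 26.6 and 24.5 CPM across WT and 25.4, 22.2, 24.1 and 21.1 CPM across cKO. Of the members it had the lowest unadjusted p (0.044, edgeR), with a log2 fold change of −0.19 ± 0.08 (SE) and an adjusted p = 0.887, and its groups overlapped through cKO replicate 1 and WT replicate 4. The same exact permutation test gave it p = 0.057. With single libraries left out, its unadjusted p was below 0.05 only without WT replicate 4 or cKO replicate 1, and its log2 fold change was −0.14 to −0.23 over the settings tried. Ndc1 held 45.4, 35.4, 38.1 and 46.4 CPM across WT and 44.4, 44.5, 43.3 and 46.2 CPM across cKO, which gave a log2 fold change of 0.11 ± 0.09 (SE). Pom121 held 68.9, 45.1, 60.65 and 71.8 CPM across WT and 66.6, 67.2, 68.2 and 65.5 CPM across cKO. Ndc1 was low in WT replicates 2 and 3, and Pom121 was lowest in WT replicate 2. Without replicate 2 the log2 fold change of Ndc1 was 0.05, and that of Pom121 was −0.003 in place of 0.12 ± 0.13 (SE). The mean of Aaas was 12.5 ± 1.79 CPM for WT and 11.6 ± 0.986 CPM for cKO (SD, n = 4 each), a log2 fold change of −0.11 that was −0.004 without WT replicate 2.

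The start windows of Nup155 and Nup210 are shown because these were the member without overlap and the member of lowest p. Each runs from 250 bases before to 50 after a start (RefSeq, GRCm38.p6), 5′ to 3′ on the gene's strand, with capitals for matches to the 5 motifs named further on. Nup155 lies on the plus strand at chr15:8109063-8109362 and holds a CCAAT box and an ETS core. Nup210 lies on the minus strand at chr6:91116777-91117076 and holds none of the 5 but 41 CG dinucleotides.
Nup155: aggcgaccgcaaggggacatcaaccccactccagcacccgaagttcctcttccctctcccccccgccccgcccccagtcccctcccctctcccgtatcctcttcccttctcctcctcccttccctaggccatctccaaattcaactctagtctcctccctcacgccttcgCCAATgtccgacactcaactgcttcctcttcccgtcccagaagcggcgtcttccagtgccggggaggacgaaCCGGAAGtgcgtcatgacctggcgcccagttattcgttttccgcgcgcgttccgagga
Nup210: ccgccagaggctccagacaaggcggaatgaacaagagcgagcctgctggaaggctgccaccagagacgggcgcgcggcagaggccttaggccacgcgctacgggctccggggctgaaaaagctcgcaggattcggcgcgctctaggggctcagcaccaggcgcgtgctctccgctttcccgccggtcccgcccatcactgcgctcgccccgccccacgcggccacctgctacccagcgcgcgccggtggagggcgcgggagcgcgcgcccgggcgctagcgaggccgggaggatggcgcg

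The central channel is lined by FG repeats of Nup62, Nup54 and Nup98, and the Nup98 transcript also encodes Nup96, a subunit of the outer ring, in the same precursor. In reads Nup98 held 42.3, 39.3, 45.0 and 43.4 CPM across WT and 47.8, 43.4, 48.5 and 43.3 CPM across cKO. Its difference was 0.11 ± 0.07 on the log2 scale (SE; adjusted p = 0.887, edgeR), and cKO replicates 1 and 3 lay above all WT libraries. Nup54 held 21.3, 23.5, 20.4 and 18.7 CPM across WT and 20.1, 22.0, 20.2 and 17.3 CPM across cKO. Nup54 and Nup62 gave log2 fold changes of −0.08 ± 0.10 and −0.09 ± 0.12 (SE), with overlapping groups. Without WT replicate 2 they were −0.02 and 0.03, so that of Nup62 turned.

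The cytoplasmic face carries the platform on which mRNA export ends. Nup214 and Nup88 form its base, Ranbp2 its filaments, Rae1 binds mRNA particles beside Nup98, and Gle1 activates the RNA helicase encoded by the Ddx19 genes, which releases export factors. These 7 genes had the narrowest span of log2 fold changes among the roles with more than 3 genes, −0.07 to 0.05, with adjusted p from 0.887 to 0.974 (edgeR). The 3 genes of the nuclear basket spanned less, −0.076 to 0.004. Without WT replicate 2 the platform spanned −0.045 to 0.079, close in width to the −0.103 to 0.023 of the inner ring. Nup88 held 50.4, 57.0, 51.3 and 54.0 CPM across WT and 50.1, 49.2, 52.7 and 50.1 CPM across cKO. Ranbp2 held 125.8, 132.1, 132.9 and 122.5 CPM across WT and 117.2, 131.0, 134.4 and 109.8 CPM across cKO. In both genes the groups overlapped, with log2 fold changes of −0.07 ± 0.06 and −0.06 ± 0.08 (SE), and that of Nup88 was −0.04 without WT replicate 2. Gle1 had a mean of 50.9 ± 1.88 CPM for WT and 50.6 ± 1.90 CPM for cKO, and Rae1 had means of 26.8 ± 0.488 and 26.1 ± 1.67 CPM (SD, n = 4 each). For Nup214, which anchors the helicase, the difference was 0.02 ± 0.10 on the log2 scale (SE) and −0.05 without WT replicate 2.

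Ddx19a and Ddx19b encode closely related copies of that helicase and lie next to each other on chromosome 8, at 110974991 to 110997823 and 111003186 to 111031751 (GRCm38.p6). Ddx19a held 21.1, 22.6, 21.1 and 21.6 CPM across WT and 24.2, 19.6, 21.2 and 24.7 CPM across cKO. Ddx19b held 41.8, 31.9, 37.9 and 41.3 CPM across WT and 40.0, 39.7, 37.5 and 40.5 CPM across cKO. Neither differed beyond its spread (log2 fold changes 0.05 ± 0.09 and 0.04 ± 0.09, SE), and that of Ddx19b was −0.03 without WT replicate 2. The order of the pair turned with the scale. Ddx19b had 1.41 to 2.02 times the reads of Ddx19a, whereas per length Ddx19a stood 1.39 to 2.01 times above Ddx19b in TPM. Counts and FPKM imply a mean transcript of about 2230 bases for Ddx19a and 6290 bases for Ddx19b in WT replicate 1. Estimated counts are not whole where reads are divided among genes. Those of Ddx19a, Ddx19b and Pom121 were not whole in all 8 libraries and those of Nup98 in 2. Nup35 shares 80.5% of its words with the pseudogene Gm4353, yet its counts were whole in every library. Nup54 shares 17.9% with Gm15790. Of the 50-base words in transcripts of Ddx19a, 33.3% also occur in Ddx19b, so their division rests on the estimation step. Their summed level was 29.8 ± 2.50 TPM in WT and 31.4 ± 2.22 TPM in cKO (SD, n = 4 each).

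The nuclear basket is formed by Tpr with Nup153 and Nup50. Nup153 held 56.6, 62.9, 62.8 and 61.4 CPM across WT and 59.1, 59.9, 59.9 and 52.3 CPM across cKO. Its cKO replicate 4 lay below all other libraries, the groups overlapped, and the log2 fold change was −0.08 ± 0.07 (SE). Tpr, the long coiled coil of the basket, held 121.6, 112.7, 127.9 and 116.6 CPM across WT and 120.9, 117.9, 125.4 and 116.0 CPM across cKO. Tpr and Nup50 gave log2 fold changes of 0.004 ± 0.06 and 0.001 ± 0.08 (SE; adjusted p = 0.986 and 0.996, edgeR), which were −0.02 and −0.06 without WT replicate 2.

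Single libraries differed in both groups. Replicate 4 of cKO lay outside the range of the other 7 libraries for 11 of 31 members, against 18.9% of all tested genes. Apart from it and WT replicate 2, each library did so for 3 to 7 members, against 11.7% to 25.3% of all tested genes. The cause was not tested. WT replicate 2 was above all 7 others for 12 members and below them for 9, whereas over all tested genes it was above for 37.5% and below for 36.7%. Nup37 was farthest above, at 7.43 CPM against 3.89 to 5.11 CPM in the others. Nup93 followed at 104.0 against 63.5 to 77.2 CPM, then Sec13, Nup43, Nup62 and Aaas. Pom121 was farthest below, at 45.1 against 60.65 to 71.8 CPM, followed by Nup188, Ddx19b and Ndc1. By place, genes above and below numbered 5 and 1 of 9 in the outer ring, 2 and 1 of 5 in the inner ring, and 1 and 2 of 4 in the membrane ring with Aaas. They numbered 2 and 1 of 3 in the channel, 1 and 2 of 7 on the cytoplasmic face and 1 and 2 of 3 in the basket, and differences between these places were not tested. These genes were picked after their values were seen. Summed markers of fibroblasts (2814 CPM against 677.4 to 1158) and of dividing cells (154.4 CPM against 34.3 to 69.9) were also highest there, and all 6 genes of each list were detected in every library. The part of cell makeup in these values was not tested. Over the other 7 libraries the coefficient of variation of CPM had a median of 5.37% for the members and 7.86% for all tested genes, from 3.25% for Gle1 to 16.8% for Nup43. Without WT replicate 2, 22 of 31 log2 fold changes kept their sign, their range was −0.17 to 0.26, and 30 of 31 intervals lay within 0.5 either way.

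**Figure D3:**
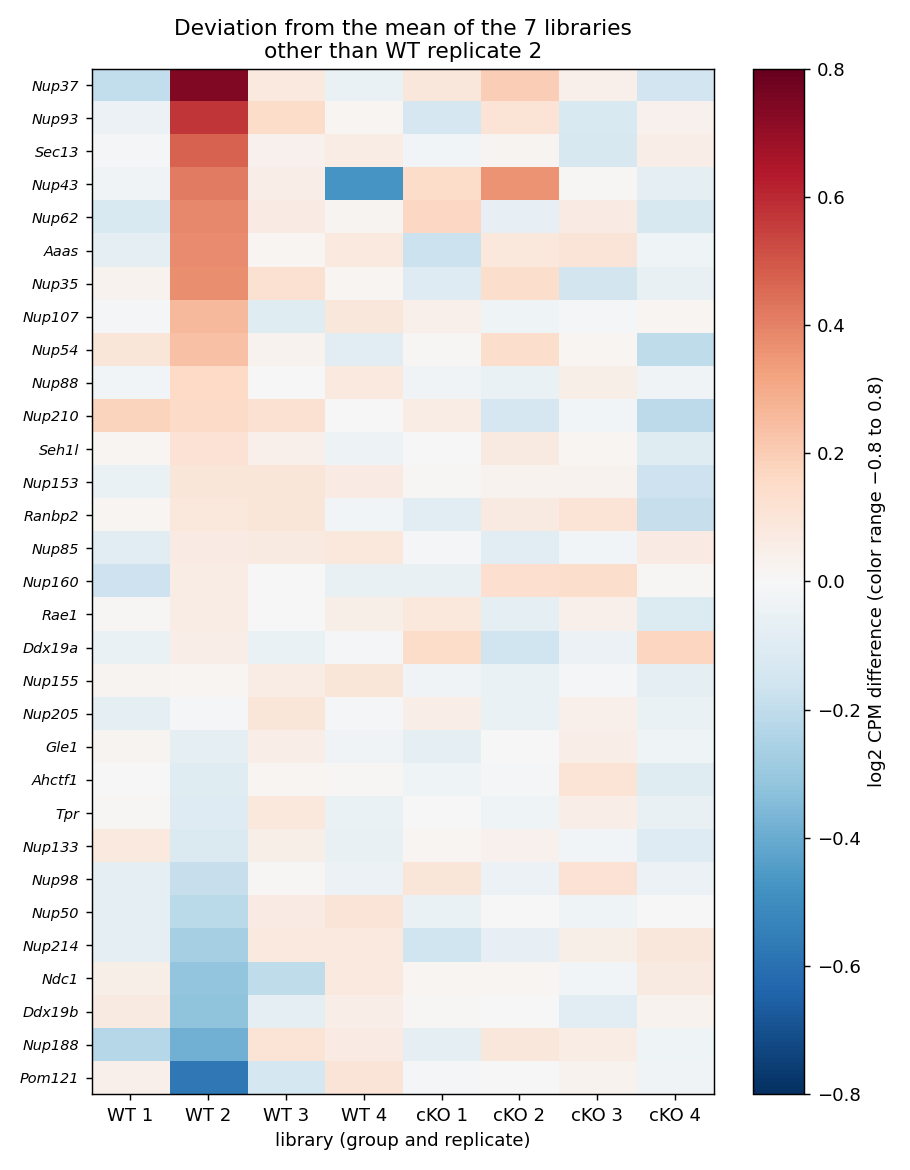
Log2 CPM of each gene in each library minus its mean over the 7 libraries other than WT replicate 2; red is higher and blue lower. The second column carries the strongest colors, from Nup37 at the top to Pom121 at the bottom. Outside it the strongest colors are those of Nup43, a gene with few reads.

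Nup93 differed between libraries in its implied transcript length as well as in its level. It held 67.6, 104.0, 77.2 and 70.5 CPM across WT and 63.5, 75.2, 64.2 and 71.5 CPM across cKO, with a log2 fold change of −0.22 ± 0.14 (SE; adjusted p = 0.887, edgeR) that became −0.06 without WT replicate 2. On the TPM scale it held 19.6, 37.5, 25.5 and 21.3 in WT and 19.2, 23.3, 18.7 and 23.7 in cKO. Relative to the other libraries, replicate 2 of WT stood higher in TPM than in CPM. The ratio of counts to FPKM (fragments per kilobase of transcript and library size) gives an implied mean transcript length for a gene in a library, if FPKM was scaled by the library's total count, which no source used here states. That of Nup93 exceeds its longest coding transcript in GENCODE vM21, 2928 bases, so the transcripts behind it are not known here. The same holds for Nup35 (2382 to 2407 bases against 1559) and Nup62 (3396 to 3421 bases against 2722). For Nup93 this implied length was 6603, 4778, 5865 and 6479 bases in WT replicates 1 to 4 and 6363, 6111, 6757 and 5708 bases in cKO replicates 1 to 4. The groups overlapped, and WT replicate 2 was the shortest of the 8.

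Of 29 members with at least 100 counts and 1 FPKM in every library, 3 had an implied length that ranged by more than 0.1 on the log2 scale, against 12.4% of 11220 genes. Nup43 and Nup37 had too few counts to be measured. That limit was chosen after the values were seen. The range was 0.50 for Nup93, which 0.276% of genes reached, 0.23 for Seh1l and 0.19 for Nup214. Seh1l stood at 2493 bases in WT replicate 2 and 2131 to 2222 bases in the others. Nup214 stood at 5081 to 5545 bases in WT and 4861 to 5295 bases in cKO. Over the 29 members the median range was 0.020, against 0.027 over all genes measured, and Nup155 stayed between 6057 and 6082 bases.

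**Figure D4:**
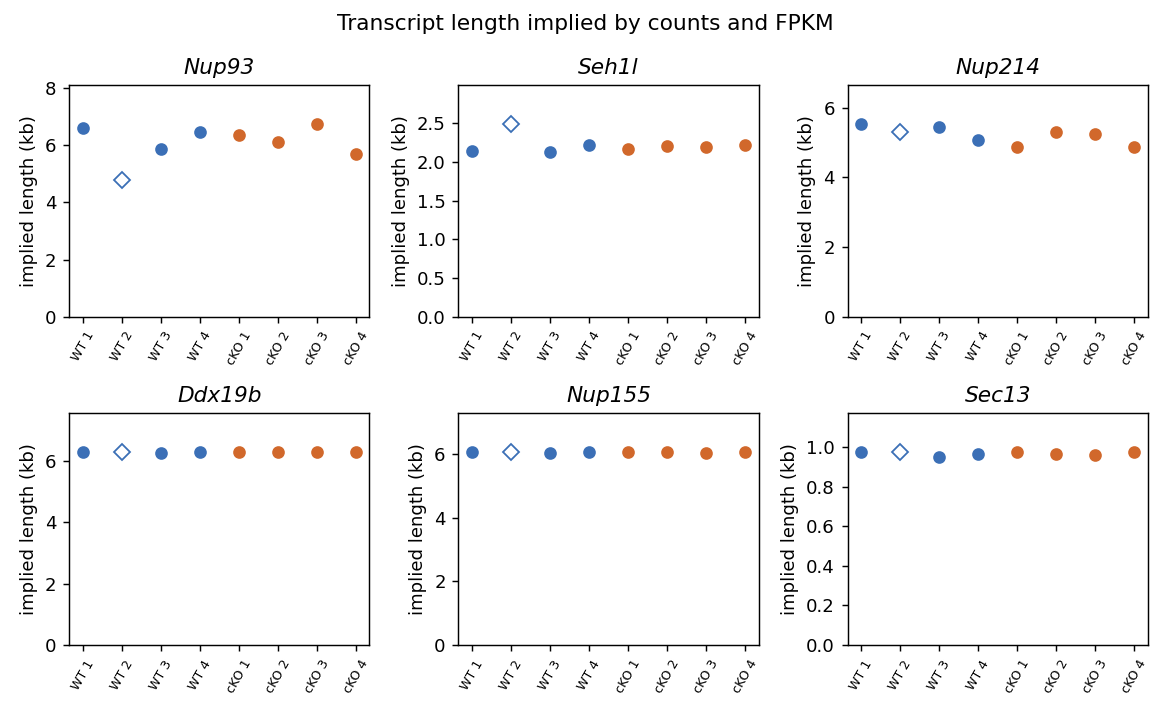
Mean transcript length in kilobases implied by counts and FPKM, for the 3 genes with the widest range (top) and 3 other genes (bottom), 1 point per library, axes from 0. Nup93 drops to 4778 bases in WT replicate 2 (open diamond), while Ddx19b, Nup155 and Sec13 are flat.

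Libraries with more signal from ganglion neuron markers tended to hold more Nup93 per length and a shorter implied transcript. In rising order the 14 markers summed to 271.1 CPM in cKO replicate 3, 324.3 in WT replicate 1, 418.4 in WT replicate 4, 541.4 in cKO replicate 1, 669.3 in cKO replicate 4, 902.8 in cKO replicate 2, 972.2 in WT replicate 3 and 3481 in WT replicate 2. In that same order the implied length of Nup93 was 6757, 6603, 6479, 6363, 5708, 6111, 5865 and 4778 bases, so it shortened at each step but that from cKO replicate 4 to cKO replicate 2. Its TPM in that order was 18.7, 19.6, 21.3, 19.2, 23.7, 23.3, 25.5 and 37.5. TPM divides counts by length, so level and length are not independent. Summed fibroblast markers in that order were 679.3, 677.4, 876.0, 881.5, 937.8, 770.7, 1158 and 2814 CPM. Those of the spinal cord were 5738, 6413, 6013, 5365, 5825, 5873, 4912 and 2266 CPM. This relation was noticed in the values and carries no test, and which markers or cells it follows was not tested.

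**Figure D5:**
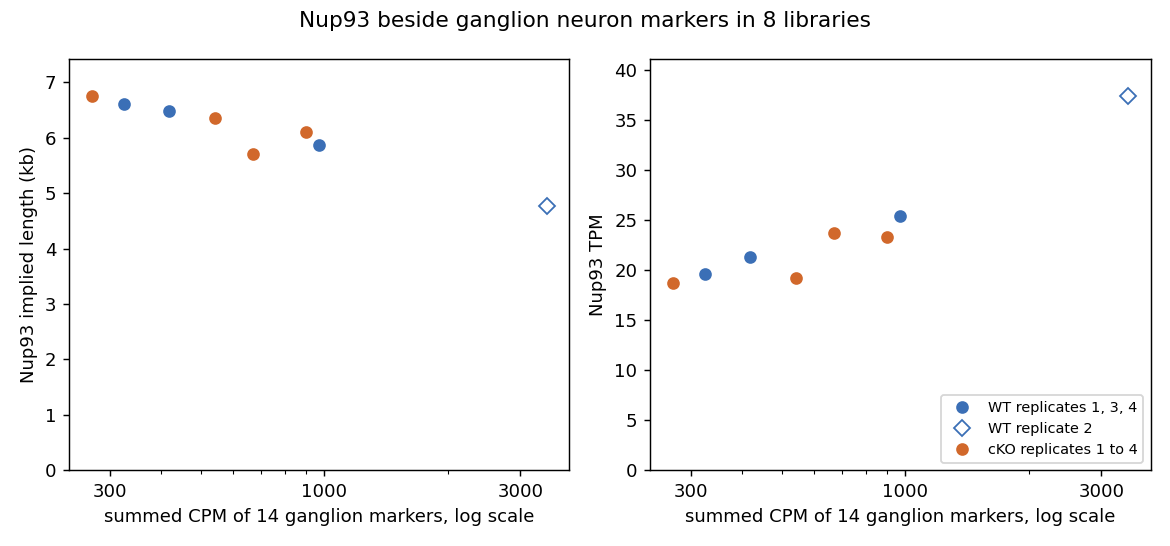
Implied transcript length (left, kilobases) and TPM (right) of Nup93 against the summed CPM of 14 ganglion neuron markers on a log axis, 1 point per library. From 271.1 to 3481 CPM of markers the length goes from 6757 to 4778 bases and the level from 18.7 to 37.5 TPM.

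RefSeq gives 2 start windows for Nup93 on the plus strand of chromosome 8 (gene at 94214564 to 94328100, GRCm38.p6), shown here because transcripts from different starts are one way in which forms of this gene differ. The upstream window at chr8:94214314-94214613 holds 28 CG dinucleotides and a CCAAT box on each strand. The downstream window at chr8:94266597-94266896 holds 3 CG dinucleotides, a CCAAT box on the minus strand and a TATA box. Capitals mark these boxes. The table gives values per gene, so the use of either start cannot be read from it.
Nup93 upstream: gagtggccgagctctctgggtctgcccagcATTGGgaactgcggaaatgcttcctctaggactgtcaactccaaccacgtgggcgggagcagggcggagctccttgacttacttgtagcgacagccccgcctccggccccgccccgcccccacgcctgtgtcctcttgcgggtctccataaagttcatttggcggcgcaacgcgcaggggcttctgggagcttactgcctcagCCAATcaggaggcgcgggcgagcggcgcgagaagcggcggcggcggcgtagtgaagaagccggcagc
Nup93 downstream: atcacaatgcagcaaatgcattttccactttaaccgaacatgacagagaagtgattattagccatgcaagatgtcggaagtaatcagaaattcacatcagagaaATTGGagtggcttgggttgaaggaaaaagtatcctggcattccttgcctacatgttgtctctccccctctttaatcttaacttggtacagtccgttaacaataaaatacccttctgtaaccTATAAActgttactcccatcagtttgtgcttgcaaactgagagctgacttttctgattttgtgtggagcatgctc

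Start windows of the same kind were held for 27 of 31 members, 31 windows in all, and not for Nup85, Nup43, Seh1l and Nup35. They had a median of 27 CG dinucleotides, against 7 over 32851 windows. Searched on both strands, the ETS core CCGGAAG was in 29.0% of members' windows against 8.86% of all windows, and the NRF1 core CGCATGCG in 12.9% against 1.87%. The YY1 motif AAGATGGC was in 12.9% against 2.75%, CCAAT in 38.7% against 37.4% and TATAAA in 9.68% against 13.6%. None of these motifs contains another, the NRF1 core reads the same on both strands, and the 2 windows of Nup37 overlap each other. Nup107 held 3 ETS cores and an NRF1 core, and Nup50 held 2 NRF1 cores and a YY1 motif. These are matches of letters and describe the windows only. The ETS and NRF1 cores themselves contain CG, and their shares in other windows of like CG content were not compared.

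Other genes of nuclear transport also gave no call. Of 51 tested genes in 6 lists, 0 had an adjusted p below 0.05 and 0 an unadjusted p below 0.05 (edgeR), 30 had higher and 21 lower means in cKO, and the median log2 fold change was 0.02. Importins and their adaptors had 13 of 16 higher (median 0.05), exportins 5 of 7 (median 0.002), the Ran cycle 4 of 6 (median 0.02), the export receptor with TREX-2, the complex that tethers genes to the basket, 5 of 9 (median 0.03), and other pore genes 1 of 3. Genes of the lamina and inner nuclear membrane had 2 of 10 higher (median −0.07). WT replicate 2 stood apart in these sums too. Its importins summed to 1561 CPM, against 1785 to 1854 CPM in the other 7 libraries, and its lamina genes to 492.0 CPM, against 382.1 to 421.9 CPM. It was also outside the others for exportins (578.1 against 593.2 to 625.8 CPM), the Ran cycle (675.2 against 604.7 to 649.6 CPM), the export receptor with TREX-2 (512.6 against 445.0 to 461.3 CPM) and other pore genes (218.6 against 223.6 to 244.1 CPM), and its part in the counts was not tested. Over the 6 lists the genes of lowest p were Sun1, which links lamina and cytoskeleton, Kpna4, an importin alpha, and Tmem33, a membrane protein found with pores. Sun1 had means of 54.3 ± 4.49 CPM for WT and 49.6 ± 0.751 CPM for cKO, Kpna4 of 87.6 ± 4.34 and 93.2 ± 5.17 CPM, and Tmem33 of 161.3 ± 14.1 and 172.8 ± 1.15 CPM (SD, n = 4 each). None of the 3 passed (adjusted p = 0.887 each, edgeR).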

How the data were processed

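RNA sequencing of tissue labelled dorsal root ganglia gave 1 table of 18560 genes for 4 libraries labelled WT and 4 labelled cKO. Libraries were matched to columns by group name and number in the column headers. The estimated counts (not whole for 10.3% to 11.0% of values), TPM, FPKM and a scaled count signal are named so in the file headers as deposited, and the scaled signal was not used. The submitters' processing notes list RSEM 1.3.1, HISAT2 2.2.1 and Bowtie2 2.4.5 with the builds mm10 and GRCm38, without saying what each did. No source used here states the annotation or strand setting, so a gene cannot be told from a partner that overlaps it. The labels speak of biological replicates in 4 sequencing batches but place no sample in one, so values cannot be given by batch, and batch and group cannot be told apart.

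Estimated counts were rounded and tested over all genes with edgeR 4.0.16 in R 4.3.3 (filterByExpr by group, 15098 genes kept, TMM, quasi-likelihood test, group as the only term, Benjamini-Hochberg threshold 0.05). The script was tested on simulated data. Intervals are at the 95% level. Log2 CPM used a prior count of 2. Alternatives used DESeq2 1.42.0 and limma 3.58.1. Totals of 15522915 to 16482614 counts per library set the precision, and genes with under 100 counts carry large counting error.

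The 31 members, their grouping by role, the transport lists and the markers were chosen with earlier results of these data known. Values per library are given for the 2 genes of lowest p and the gene of highest TPM in each role, for genes without overlap and for the Ddx19 pair; of the transport lists the 3 genes of lowest p are named. Implied length is the estimated count divided by FPKM and by the library's total count, a measure added after the data were seen. Shared 50-base words come from GENCODE vM21 transcripts and start windows from RefSeq. Protein features were planned and not analysed here.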

Additional observations from a re-analysis of the deposited data

Results flagged for a closer look

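Over 32 genes, the 31 members and Alyref, and 2 groups each, 64 groups of 4 libraries were searched for a library far from its group, and 4 were found, where chance flags about 1 in 20. Sec13 reached 79.6 CPM in WT replicate 2, against 56.8 to 59.7 CPM in the other WT libraries. Ahctf1 was lowest in WT replicate 2 at 54.9 CPM, against 59.0 to 59.5 CPM in the others. Nup85 was lowest in WT replicate 1 at 23.5 CPM, against 26.2 to 26.5 CPM. Nup153 was lowest in cKO replicate 4 at 52.3 CPM, against 59.1 to 59.9 CPM. The cause was not tested.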

How the results depend on the processing

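Over 16 alternatives 0 members and 0 transport genes were called, and the adjusted p of every member stayed at or above 0.631. Over all genes DESeq2 called 1, and 1 was called without WT replicate 2, so that leaving out single libraries gave 0 to 1. The count of members with an unadjusted p below 0.05 was 1, Nup210, and 0 with DESeq2, without the filter and with either TPM fit; leaving out single libraries gave 0 to 1. The median log2 fold change of the members was 0.019 and 0.017 on log2(TPM + 0.1) and log2(TPM + 1), where the median of all genes was 0.029 and 0.025, and 16 members were higher. With the replicate block it was −0.036, with 1 member at an unadjusted p below 0.05 and 0 called. Correlations of same-numbered libraries were 0.00776, 0.0448, −0.0367 and 0.253, and only number 4 matched best with its own. The labels place no sample in a batch, and these correlations cannot show whether same-numbered samples share one.

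Of 31 members 14 changed sign under some alternative. With upper-quartile factors Ahctf1, Nup50 and Tpr went to −0.004, −0.012 and −0.010. With log2(TPM + 0.1) and log2(TPM + 1) Nup133 went to 0.019 and 0.017, Seh1l to 0.024 in both, Nup205 to 0.031 and 0.029, and Gle1 to 0.023 and 0.022. Leaving out single libraries gave ranges of −0.030 to 0.040 for Ahctf1, −0.055 to 0.048 for Nup50, −0.022 to 0.039 for Tpr, −0.039 to 0.026 for Nup133, −0.031 to 0.027 for Nup205, −0.029 to 0.015 for Gle1, −0.116 to 0.005 for Nup107, −0.249 to 0.102 for Nup37, −0.003 to 0.202 for Pom121, −0.149 to 0.026 for Nup62, −0.045 to 0.068 for Nup214, −0.032 to 0.090 for Ddx19b and −0.038 to 0.255 for Nup43. The cause was not tested.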
